A study of Mus musculus with 10 samples.

Results

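Macrophage marker genes and the 3 chains of complement C1q were followed in colon tissue of mice with dextran sulfate sodium (DSS) colitis that did or did not receive chick early amniotic fluid (ceAF). The group holds 10 of the 56691 genes of the sequencing table and was taken by gene symbol. *Adgre1*, *Cd68* and *Csf1r* were taken as markers of macrophages in general, and *Cx3cr1*, *C1qa*, *C1qb*, *C1qc*, *Mrc1* and *Cd163* as genes of resident macrophages. *Ly6c2* was taken as a gene of inflammatory monocytes. All 10 symbols were found once, and all 10 genes had enough counts to be among the 16545 genes tested. Male C57/BL6 mice of 8 weeks were used. In the DSS group, 5 mice drank 3% DSS for 7 days. In the ceAF group, 5 mice drank the same DSS for 7 days and were then given 15 mL/kg ceAF by gavage for 10 days. Both groups therefore carry the DSS injury, and healthy or mesalazine-treated colon was not analysed here. The paper compares body weight and disease activity of both groups after gavage began, but its text gives no day of tissue collection. It also names no vehicle gavage for the DSS group. RNA was taken from whole colon tissue and selected for poly(A). Reads counted on genes ranged from 16275884 to 19901549 per mouse in the DSS group and from 14676471 to 18811795 in the ceAF group.

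Colonic macrophages live in the lamina propria, clear microbes and dying cells, and are renewed from blood monocytes that enter as *Ly6c2*-positive cells. As they mature in the healthy gut they lose Ly6C and gain CX3CR1, CD163 and the mannose receptor, whereas colitis brings in many monocytes that keep an inflammatory state. The C1q chains, made largely by resident macrophages, join into the molecule that opens the classical complement pathway and tags dying cells for uptake. The comparison asks whether these genes differ in DSS colitis with and without ceAF, and whether the resident genes and *Ly6c2* differ in the same way.

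The tissue label was checked against markers. Colon epithelium was plain in every mouse, with *Epcam*, an epithelial adhesion gene, at 2110 ± 313 CPM (counts scaled to the size of the library by TMM; SD, n = 5) in the DSS group and 2080 ± 318 (n = 5) in the ceAF group. *Cdx2*, an intestinal transcription factor, lay between 66.1 and 308 CPM over the 10 mice. *Car1*, a carbonic anhydrase of colon epithelium, differed far more among mice, with 1120, 4650, 7770, 4960 and 115 CPM in DSS-1 to DSS-5 and 11900, 814, 3340, 753 and 505 CPM in ceAF-1 to ceAF-5. Macrophage markers were present in all 10 mice, and the lowest count of *Adgre1* in a mouse was 34 reads. In bulk tissue, fewer macrophages and less of a transcript per macrophage cannot be told apart.

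The libraries of ceAF-1 and DSS-1 stood apart in these genes. ceAF-1 was the lowest mouse in 8 of the 10 genes and DSS-1 the highest in 8 of the 10. Over all genes tested, ceAF-1 was the lowest mouse in 21% and DSS-1 the highest in 16%. The log2 fold changes of the 10 genes and the medians of the gene lists are given with and without them below, a choice made after seeing the data.

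All 10 genes had lower fitted levels in the ceAF group than in the DSS group. Their log2 fold changes had a median of -0.47, against 0.01 over all genes tested. That median was -0.36 without DSS-1, -0.29 without ceAF-1 and -0.19 without both, where it was 0.000947 over all genes tested. None of the 10 passed edgeR's quasi-likelihood test after Benjamini-Hochberg adjustment over all genes. Of all 16545 genes tested, 0 (0%) passed it. With DESeq2, which was given 32504 genes and applied its own filter, 26 passed, none of them one of the 10. At an unadjusted p-value under 0.05, 2 of the 10 genes were lower, *Adgre1* and *C1qa*, and 0 were higher. The same limit was passed by 607 of all genes in the lower direction (3.67%) and by 539 in the higher direction (3.26%), a split that was 701 to 308 with limma-trend on log2(FPKM + 1) and 699 to 291 on log2(FPKM + 0.1). With DSS-1, DSS-2, DSS-3, ceAF-1, ceAF-4 or ceAF-5 left out, 0 of the 10 genes passed that limit, with DSS-4 or ceAF-2 left out 1 passed, with ceAF-3 left out 2, and without ceAF-1 and DSS-1 together 0 passed. With DSS-5 left out 3 passed, *Adgre1*, *C1qa* and *C1qc*, and 4.54% of all genes were then lower at that limit. The groups overlapped in all 10 genes, while they did not overlap in 205 of all genes tested (1.24%).

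**Figure D1:**
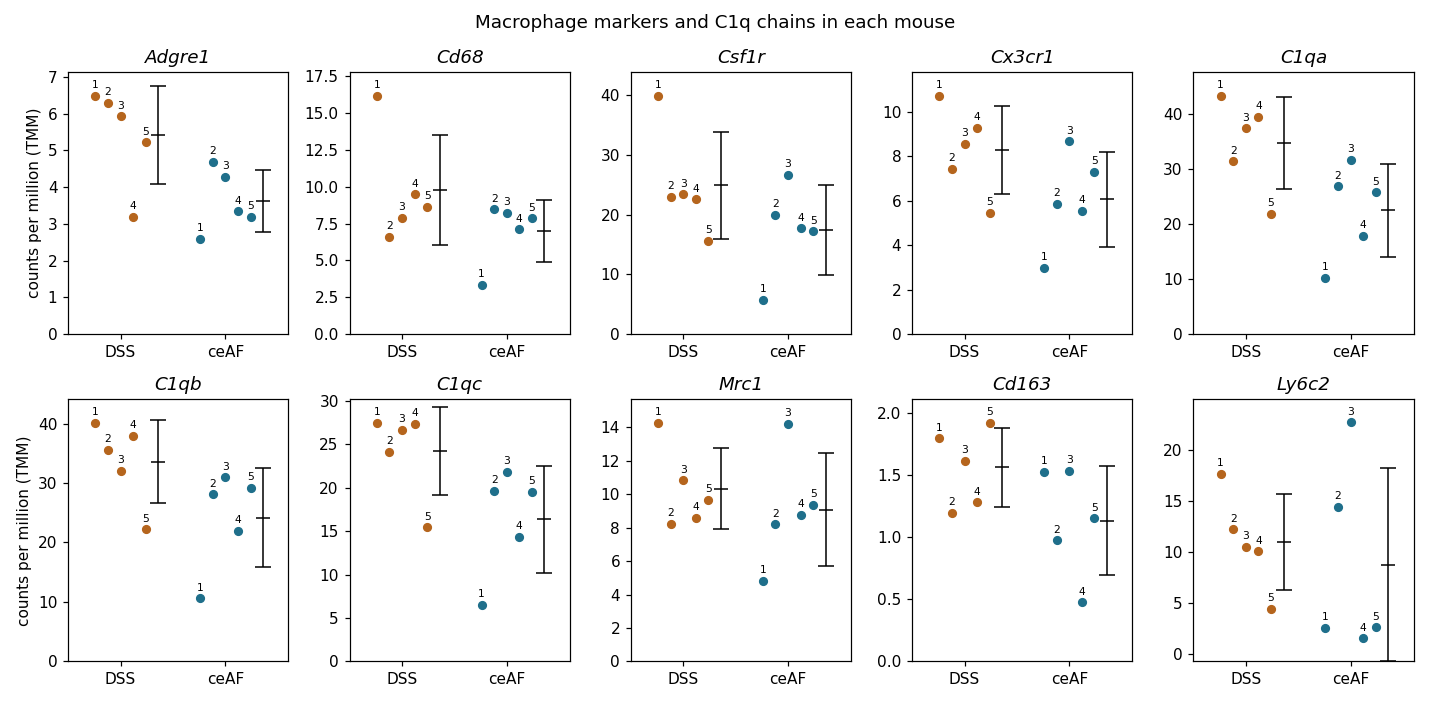
Level of each of the 10 genes in each mouse, in TMM-normalized CPM on linear axes, with the mouse number above each point and the mean and SD of 5 mice beside each group. ceAF-1 is the lowest point in 8 panels and DSS-1 the highest in 8, and the groups overlap in all 10.

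*Adgre1* encodes F4/80, the classical surface marker of mouse macrophages. It stood at 6.49, 6.30, 5.93, 3.20 and 5.22 CPM in DSS-1 to DSS-5 and at 2.59, 4.69, 4.28, 3.34 and 3.19 CPM in ceAF-1 to ceAF-5. All 5 ceAF mice were below the median of the DSS mice, and 4 DSS mice were above every ceAF mouse, the exception being DSS-4. Its log2 fold change was -0.58 (standard error 0.241), which is 33.3% lower in the ceAF group. The unadjusted p-value was 0.0337, and the edgeR p-value adjusted over all genes was 0.694. The exact two-sided permutation test over all ways to assign the mice gave 0.0476, where 0.00794 is the smallest p it allows. It was the only one of the 10 genes under 0.05 in that test, and the others ranged from 0.0794 to 0.413. *Adgre1* ranked 799 by p-value among all genes tested, and without ceAF-1 and DSS-1 its log2 fold change was -0.42 (standard error 0.253).

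*Csf1r*, the receptor for the growth factors that keep macrophages alive, was highest in DSS-1 and lowest in ceAF-1. Its levels were 39.9, 22.9, 23.4, 22.5 and 15.6 CPM in DSS-1 to DSS-5 and 5.72, 19.9, 26.6, 17.7 and 17.2 CPM in ceAF-1 to ceAF-5. Between these extremes the groups were interleaved, and ceAF-3 stood above 4 of the DSS mice. The log2 fold change of -0.51 (standard error 0.351, unadjusted p = 0.175) became -0.05 (standard error 0.179) without ceAF-1 and DSS-1. *Csf1r* spans an 873-base overlap with *Hmgxb3* on the opposite strand, a gene with 3960 counts over the 10 mice. Whether the counting used strand is not given in the sources used here, so reads from that stretch may be shared.

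*Cd68*, a lysosomal membrane protein of phagocytes, ranged from 6.60 to 16.2 CPM in the DSS group and from 3.36 to 8.46 in the ceAF group. The highest value belonged to DSS-1 and the lowest to ceAF-1, and the other 8 mice lay between 6.60 and 9.48 CPM. Its log2 fold change was -0.48 (standard error 0.295, unadjusted p = 0.135) with all mice and -0.04 (standard error 0.158) without those 2.

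The 3 C1q genes lie side by side on the minus strand of chromosome 4, at positions 136607440 to 136613498 (*C1qb*), 136617115 to 136620376 (*C1qc*) and 136623228 to 136626114 (*C1qa*), as deposited and with no build named. *C1qa*, the A chain, reached 43.3, 31.4, 37.4, 39.5 and 21.8 CPM in DSS-1 to DSS-5 and 10.2, 26.8, 31.7, 17.8 and 25.8 CPM in ceAF-1 to ceAF-5. All 5 ceAF mice were below the DSS median, 2 of them below every DSS mouse, and DSS-5 was low within its own group. The group means were 34.6 ± 8.38 CPM (SD, n = 5) with DSS and 22.5 ± 8.46 (n = 5) with ceAF. The log2 fold change was -0.62 (standard error 0.282), 35.1% lower in the ceAF group, with an unadjusted p of 0.0492 and an edgeR p adjusted over all genes of 0.717. The exact two-sided permutation test gave 0.0794. Without ceAF-1 and DSS-1 the log2 fold change was -0.35 (standard error 0.215).

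*C1qb*, the B chain, measured 40.1, 35.5, 32.1, 37.9 and 22.2 CPM in DSS-1 to DSS-5 and 10.6, 28.1, 31.0, 22.0 and 29.1 CPM in ceAF-1 to ceAF-5. The order of mice was close to that of *C1qa*, with DSS-5 and ceAF-4 almost level. Its log2 fold change was -0.47 (standard error 0.264, unadjusted p = 0.101), and -0.21 (standard error 0.175) without ceAF-1 and DSS-1.

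*C1qc*, the C chain, measured 27.5, 24.1, 26.7, 27.4 and 15.4 CPM in DSS-1 to DSS-5 and 6.49, 19.7, 21.8, 14.3 and 19.5 CPM in ceAF-1 to ceAF-5. In both *C1qb* and *C1qc*, 4 DSS mice were above every ceAF mouse and DSS-5 was the exception. The log2 fold change of *C1qc* was -0.56 (standard error 0.289, unadjusted p = 0.0769), and -0.31 (standard error 0.197) without those 2 mice. The exact two-sided permutation test gave 0.111 for *C1qb* and 0.103 for *C1qc*. Leaving out DSS-5, the lowest DSS mouse in the 3 chains, moved the log2 fold changes the other way, to -0.73 in *C1qa* (unadjusted p = 0.0231), -0.57 in *C1qb* (unadjusted p = 0.0519) and -0.67 in *C1qc* (unadjusted p = 0.0397).

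The chains kept nearly fixed proportions. On the FPKM scale, which divides the count by gene length and library total, the ratio of *C1qa* to *C1qb* was 1.08 ± 0.110 (SD, n = 5) with DSS and 0.970 ± 0.0855 (n = 5) with ceAF. Over the 10 mice it ran from 0.848 to 1.22. The ratio of *C1qb* to *C1qc* was 2.47 ± 0.197 with DSS and 2.67 ± 0.156 with ceAF, with a range of 2.13 to 2.90. The level of *C1qa* itself ran from 10.2 to 43.3 CPM. No sequence window of 50 bases in the C1q transcripts occurred in a transcript of another gene.

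C1q was also set against general markers of macrophages and leukocytes in the same mouse. Relative to the mean of *Adgre1*, *Cd68* and *Csf1r*, the C1q mean stood 1.49 ± 0.347 log2 units higher with DSS and 1.42 ± 0.184 with ceAF. Relative to *Ptprc*, the CD45 gene of all leukocytes, it stood at -1.58 ± 0.482 with DSS and -1.51 ± 0.383 with ceAF. Both differences between groups, -0.08 and 0.07, were smaller than the spread between mice and were not tested.

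Of the other resident genes, *Cx3cr1*, the fractalkine receptor, ranged from 5.46 to 10.7 CPM with DSS and from 2.98 to 8.66 with ceAF. Its log2 fold change was -0.45 (standard error 0.276, unadjusted p = 0.134), and -0.17 (standard error 0.218) without ceAF-1 and DSS-1. Of its transcript windows of 50 bases, 1.06% occurred in transcripts of other genes, most of them in an antisense neighbour. Its deposited span also overlaps *Wdr48* on the opposite strand (24972 bases) and *Gorasp1* and *Csrnp1* on its own strand (12309 and 13496 bases). These genes had 8270, 3157 and 2872 counts over the 10 mice, against 1226 for *Cx3cr1*. Whether reads were shared was not tested.

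*Mrc1*, the mannose receptor CD206, had the smallest difference of the 10. It stood at 14.3, 8.24, 10.8, 8.58 and 9.66 CPM in DSS-1 to DSS-5 and at 4.81, 8.20, 14.2, 8.77 and 9.35 CPM in ceAF-1 to ceAF-5. The groups were interleaved, with DSS-1 and ceAF-3 together at the top. The log2 fold change of -0.18 (standard error 0.262, unadjusted p = 0.499) turned to 0.12 (standard error 0.200) without ceAF-1 and DSS-1.

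*Cd163*, the scavenger receptor for haemoglobin bound to haptoglobin, was the scarcest gene. It measured 1.80, 1.20, 1.62, 1.28 and 1.92 CPM in DSS-1 to DSS-5 and 1.53, 0.976, 1.54, 0.477 and 1.15 CPM in ceAF-1 to ceAF-5, from 8 to 32 reads per mouse. Here ceAF-1 was not low, ceAF-4 was the lowest mouse and DSS-5 the highest. Its log2 fold change was -0.46 (standard error 0.312, unadjusted p = 0.167), and -0.53 (standard error 0.357) without ceAF-1 and DSS-1.

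*Ly6c2*, which encodes the Ly6C antigen of inflammatory monocytes, had the widest spread of the 10 on the log2 scale. It measured 17.6, 12.2, 10.5, 10.1 and 4.38 CPM in DSS-1 to DSS-5 and 2.52, 14.4, 22.7, 1.49 and 2.58 CPM in ceAF-1 to ceAF-5. In the ceAF group 3 mice were below every DSS mouse, while ceAF-2 was above all DSS mice but DSS-1, and ceAF-3 above all 5. The means were 10.9 ± 4.75 CPM (SD, n = 5) with DSS and 8.74 ± 9.43 (n = 5) with ceAF, and the medians 10.5 and 2.58. The log2 fold change was -0.32 (standard error 0.695), with an unadjusted p of 0.652 and an edgeR p adjusted over all genes of 0.959. The exact two-sided permutation test on log2 CPM gave 0.294. Without ceAF-3 the log2 fold change was -1.06, without ceAF-4 it was -0.04, and without ceAF-1 and DSS-1 it was 0.14.

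*Ly6c1*, its close paralog, also marks endothelium and was more abundant, at 107 ± 61.5 CPM with DSS and 68.2 ± 40.9 with ceAF (SD, n = 5 each). Of the *Ly6c2* transcript windows, 14.5% of those of 50 bases and 5.81% of those of 100 bases occurred in transcripts of other genes, mostly *Ly6c1*. The level of *Ly6c2* is therefore uncertain to the extent that reads were split between the paralogs. The 2 genes did not share their order of mice: DSS-5 had the highest *Ly6c1* value, 215 CPM, and the lowest *Ly6c2* value of the DSS group.

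The contrast of resident genes with *Ly6c2* depended on the scale and on single mice. Per mouse, the mean log2 CPM of the 6 resident genes minus that of *Ly6c2* was -0.19, -0.11, 0.31, 0.34 and 1.12 in DSS-1 to DSS-5 and 0.97, -0.60, -0.84, 2.23 and 1.97 in ceAF-1 to ceAF-5. The ceAF mice held both the lowest and the highest values, so the groups overlapped. The group means were 0.294 ± 0.520 (SD, n = 5) with DSS and 0.749 ± 1.42 (n = 5) with ceAF. Their difference of 0.455 was smaller than the pooled SD of 1.07, and it was 0.277 without ceAF-1 and DSS-1. With 1 mouse left out it ran from 0.0835 (without ceAF-4) to 0.851 (without ceAF-3). The mean log2 level differed by -0.522 in the resident genes and by -0.977 in *Ly6c2*. In the fitted counts of all mice, where the high mice weigh more, the order was the other way. The median log2 fold change of the 6 resident genes was -0.467 against -0.322 for *Ly6c2*, and 5 of the 6 lay below it. That order turned without ceAF-3, where *Ly6c2* was at -1.06 and the 6 resident genes lay between -0.77 and -0.39. With mice of the same number taken as a block, *Ly6c2* was at -0.92 and the resident genes lay between -0.67 and -0.22. Without ceAF-2, *Ly6c2* (-0.55) was below *C1qb* (-0.51), *Cx3cr1*, *Cd163* and *Mrc1* but above *C1qa* (-0.67) and *C1qc* (-0.62). With all mice the direction of the contrast therefore differed between the scales, and without ceAF-3 it was the same on both. No test was run on it, and which cells gave the *Ly6c2* reads was not tested.

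**Figure D2:**
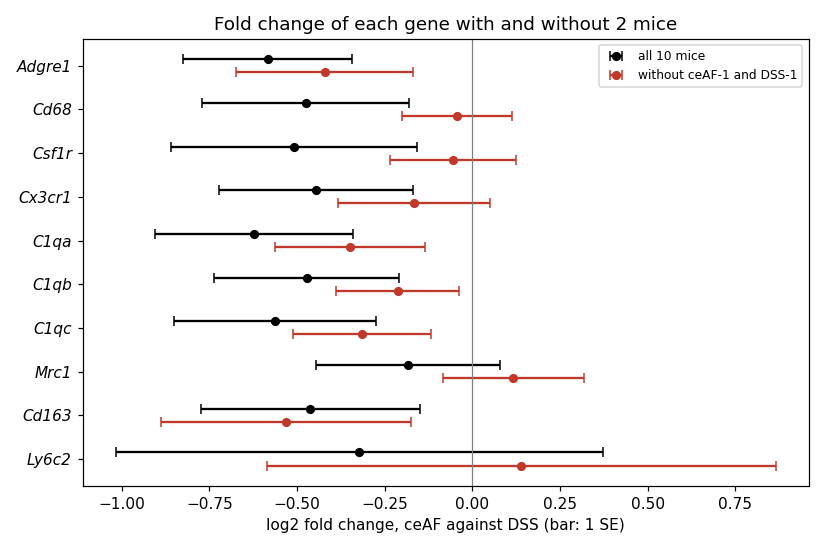
Log2 fold change of each gene, ceAF against DSS, from edgeR, with bars of 1 standard error, for all 10 mice (black) and without ceAF-1 and DSS-1 (red). With all mice the 10 values lie between -0.62 and -0.18, and without the 2 mice *Mrc1* and *Ly6c2* lie above 0.

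Levels of different genes were compared per length, as FPKM. In the DSS group *C1qa* (33.6 ± 8.26 FPKM, SD, n = 5) and *C1qb* (31.1 ± 6.48) were highest and did not differ beyond their spread, and *C1qc* followed at 12.6 ± 2.66. *Cd68* came next at 7.85 ± 3.17, above *Csf1r* (4.36 ± 1.67) and *Ly6c2* (4.04 ± 1.83), which did not differ beyond their spread. *Cx3cr1* (1.85 ± 0.455), *Adgre1* (1.70 ± 0.454) and *Mrc1* (1.64 ± 0.427) formed a level group, and *Cd163* was last at 0.288 ± 0.0657. In the ceAF group *C1qb* (22.3 ± 8.11) and *C1qa* (21.6 ± 8.35) again led, and *Cd163* (0.202 ± 0.0712) was again last.

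Across the 10 mice most of the genes varied together. Of the 45 pairs, 26 had a Pearson r with an adjusted permutation p under 0.05 and 11 a Spearman rho, each adjusted over the 45 pairs. The share among pairs of all genes was not computed, so whether these counts are particular to the 10 genes cannot be told. Outside the 10, r with the C1q mean was 0.984 for *Igkc*, 0.839 for *Ptprc* and 0.00243 for *Epcam*. The median r was 0.685, and 0.617 for deviations from the group means, so over the pairs as a whole the relation was present within groups. The pairs with *Cd163* were an exception, given below. The C1q chains were closest, with r from 0.972 to 0.989. For *C1qb* and *C1qc*, r was 0.989 (permutation p = 2e-05, adjusted 0.000225) and rho 0.976 (permutation p = 2e-05, adjusted 0.00045), and r was 0.943 without the 2 mice farthest from the median of *C1qb*. *Cx3cr1* and *C1qa* had r = 0.970 (permutation p = 2e-05, adjusted 0.000225), rho = 0.964 (permutation p = 5e-05, adjusted 0.00075) and r = 0.899 without the 2 mice farthest from the median of *Cx3cr1*, ceAF-1 and DSS-1.

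Other pairs rested on those 2 mice. *Cd68* and *Csf1r* had r = 0.897 (permutation p = 0.00697, adjusted 0.0209) and rho = 0.430 (permutation p = 0.218, adjusted 0.260), and r was -0.0146 without ceAF-1 and DSS-1. *Adgre1* and *Cd68* went from 0.579 to -0.330 in the same way. Over all 45 pairs the median r without ceAF-1 and DSS-1 was 0.442. With all mice, *Cd163* had r between 0.0702 and 0.476 with the other genes, and 0 of its 9 pairs passed the adjusted limit. Its median r of 0.184 became -0.076 for deviations from the group means. Without ceAF-1 and DSS-1 its median r rose from 0.184 to 0.445, while that of the 28 pairs without *Cd163* and *Ly6c2* fell from 0.837 to 0.244. *Ly6c2* had r between 0.476 and 0.751 with the other genes, the highest with *C1qa* (permutation p = 0.00934, adjusted 0.0247), where rho was 0.733 (permutation p = 0.0207, adjusted 0.0777) and r was 0.598 without the 2 mice farthest from the median of *C1qa*.

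**Figure D3:**
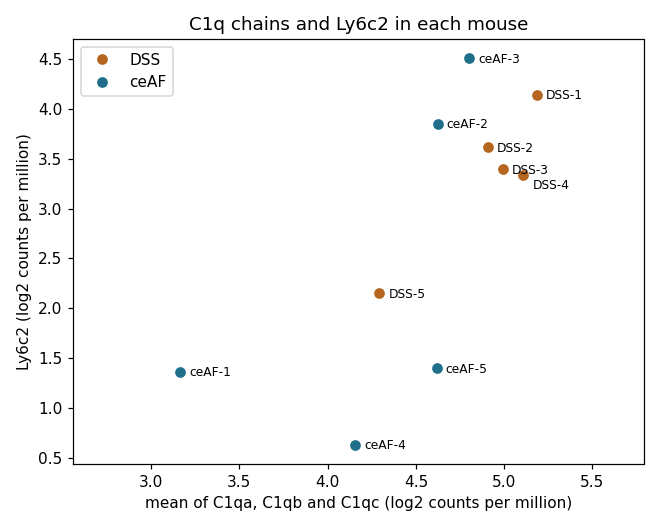
Mean log2 CPM of the 3 C1q chains (horizontal) against log2 CPM of *Ly6c2* (vertical) in each of the 10 mice. ceAF-2 and ceAF-3 lie among or above the DSS mice in *Ly6c2*, and ceAF-1, ceAF-4 and ceAF-5 lie below all DSS mice.

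Genes most like these patterns were sought among 15221 genes with a symbol and a mean of at least 1 CPM. The 5 with the highest r with the C1q mean over the 10 mice were *Gm5547* (0.993), *Mpeg1* (0.986), *Igkc* (0.984), *Atp8b2* (0.976) and *C1s1* (0.974). *Mpeg1* encodes perforin-2 of macrophages, *Igkc* the constant part of the immunoglobulin kappa chain made by plasma cells, and *C1s1* a protease of the C1 complex. Without ceAF-1 and DSS-1 their r lay between 0.891 and 0.974. The 5 most like *Ly6c2* were *Gbp5* (0.974), *Ifi205* (0.944), *Cmklr1* (0.939), *Ms4a4c* (0.939) and *Cd28* (0.938). *Gbp5* and *Ifi205* are induced by interferons, *Cmklr1* is the chemerin receptor, and *Cd28* is a costimulatory receptor of T cells. *Gbp5* measured 37.0 and 48.8 CPM in ceAF-2 and ceAF-3, 11.8, 7.22 and 7.53 in ceAF-1, ceAF-4 and ceAF-5, and between 14.8 and 43.1 with DSS. These r values are the highest of many and describe likeness only. Among T cell markers, r with *Ly6c2* ran from 0.525 (*Cd3g*) to 0.826 (*Cd2*). Among genes of monocytes and inflammatory macrophages it ran from -0.0805 (*F13a1*) to 0.939 (*Ms4a4c*).

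Other genes of macrophages differed in how they stood in the 2 extreme mice. Of 26 further genes of resident macrophages, 19 were tested. The median of their log2 fold changes was -0.34, and 1 was lower at an unadjusted p under 0.05 and 0 higher. Without DSS-1 the median was -0.16 and 0 were lower, without ceAF-1 it was -0.31 and 2 were lower, *Trem2* and *Maf*, and without both it was -0.09 and 2 were lower, *Selenop* and *Maf*. Of all genes tested, 3.67% were lower at that limit with all mice, 1.92% without DSS-1, 5.94% without ceAF-1 and 4.54% without both, so these counts are near those shares. The gene lower with all mice was *Trem2*, a lipid receptor of macrophages, at 1.42 ± 0.726 CPM with DSS and 0.572 ± 0.329 with ceAF (SD, n = 5 each). It differed by a log2 fold change of -1.28 (standard error 0.526), with an edgeR p adjusted over all genes of 0.694. Its unadjusted p was 0.0332 with all mice, 0.0880 without DSS-1 and 0.113 without both mice, where the log2 fold change was -0.79. *Hmox1* (-0.88, and -0.02 without both mice) was next lowest, and *Mertk* (0.44) and *Siglec1* (0.22) had the highest log2 fold changes. *Mertk*, an uptake receptor for dying cells, was highest in ceAF-1, at 145 CPM, the mouse in which 8 of the 10 genes were lowest. The same held for *Selenop* (1880 CPM in ceAF-1), *Gas6* (395 CPM) and *Maf* (59.6 CPM). Over the 10 mice, r with the C1q mean was -0.649 for *Mertk*, -0.7 for *Selenop*, -0.706 for *Gas6* and -0.16 for *Maf*. Other genes of the list went the other way, up to 0.939 in *Ms4a7*. Which cells of the colon gave the reads of these genes was not tested. The sum of the list, led by *Selenop*, was 2660 CPM in ceAF-1, from 1130 to 1590 in the other ceAF mice and from 1540 to 1790 with DSS.

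Genes of monocytes and inflammatory macrophages had a lower median that leaned on DSS-1. Of 23 tested, 10 were lower at an unadjusted p under 0.05 and 0 higher, and the median was -0.81. Without DSS-1 the count was 3 and the median -0.36, and without both DSS-1 and ceAF-1 it was 1 (*Trem1*, -2.06) and -0.21. The shares of all genes are those given above. The 6 with the smallest p were *Trem1* (-4.96), *Nlrp3* (-3.48), *Clec4e* (-4.02), *Chil3* (-3.67), *Il1b* (-3.79) and *Thbs1* (-1.74), and *F13a1* (0.70) was highest. Without DSS-1 the 6 values were, in the same order, -2.24, -1.21, -1.52, -2.71, -1.35 and -1.10. *Nlrp3*, *Clec4e* and *Il1b* then no longer passed the limit (unadjusted p = 0.0619, 0.0855 and 0.0955). *Trem1*, an activating receptor of neutrophils and monocytes, was at 63.3 CPM in DSS-1, and the next DSS mouse had 5.69. *Ccr2*, the receptor that brings monocytes out of the bone marrow, was at 23.5 ± 9.01 CPM with DSS and 13.8 ± 4.38 with ceAF. The log2 fold change was -0.76 (standard error 0.327, unadjusted p = 0.0404), with an edgeR p adjusted over all genes of 0.704. Its unadjusted p was 0.0646 without DSS-1, 0.0822 without ceAF-1 and 0.116 without both. *Plac8*, the most abundant gene of the list at 1450 CPM, had a log2 fold change of -0.07. Its r was 0.103 with the C1q mean and 0.681 with *Ly6c2*, and whether its reads came from monocytes was not tested.

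Over all genes tested the share lower at that limit was 3.67% with all mice, as above. Of 19 genes of the myeloid lineage, all tested, 7 were lower at an unadjusted p under 0.05 and 0 higher, with a median of -0.63. Without DSS-1 the median was -0.34 and 5 were lower, and without DSS-1 and ceAF-1 it was -0.27 and 4 were lower, *Aif1*, *Fcer1g*, *Lgmn* and *Cebpa*. The smallest p-values belonged to *Aif1* (-0.80), *Fcer1g* (-1.37), *Lgmn* (-0.63), *Lst1* (-0.87), *Laptm5* (-1.06) and *Cebpb* (-1.31), and *Runx1* (-0.0035) was among the 2 highest log2 fold changes. Without DSS-1 *Fcer1g* was at -0.83, *Laptm5* at -0.67 and *Cebpb* at -0.34, and *Cebpb* no longer passed the limit (unadjusted p = 0.102). *Lgmn*, a lysosomal protease, had a log2 fold change of -0.70 without DSS-1 and ceAF-1. *Spi1*, which encodes the lineage factor PU.1, was at -0.92 with all mice and 0.06 without the 2.

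Ligands and partners of the 10 genes passed the same limit in 0 of 9 tested ligands and chemokines (median -0.51) and in 0 of 12 tested genes of the classical complement pathway and C1q receptors (median -0.25). The 2 medians were -0.27 and -0.10 without DSS-1, -0.31 and -0.13 without ceAF-1, and -0.16 and -0.08 without both, with 0 genes under the limit each time. *Cx3cl1*, the ligand of CX3CR1, had a log2 fold change of -0.28, and *Csf1* and *Il34*, the ligands of CSF1R, of -0.10 and -0.27. The extremes among ligands were *Ccl7* (1.72) and *Il10* (-1.03), followed by *Ccl8* (-0.69). In the complement list they were *C3* (-0.82) and *C1s1* (-0.41) at the low end and *C2* (0.32) and *C1qbp* (0.21) at the high end. Among 8 tested neighbours of *Ly6c2* in the Ly6 family, 1 was lower, *Ly6i* (-1.73, unadjusted p = 0.0354), followed by *Ly6g* (-0.67), and *Ly6d* (0.37) and *Ly6e* (0.11) were highest. The median of the 8 was -0.31, and -0.15 without DSS-1 and ceAF-1. The unadjusted p of *Ly6i* was 0.0873 without DSS-1, 0.0679 without ceAF-1 and 0.142 without both. Without both, *Ly6d* was higher at that limit, with a log2 fold change of 1.07 (unadjusted p = 0.00293).

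Markers of other cells moved with some of these values, and their part in the results was not tested. All 10 T cell markers were lower at an unadjusted p under 0.05 (median -1.24), and 7 were without DSS-1 and ceAF-1 (median -1.25). The smallest p-values belonged to *Cd3g* (-1.47), *Cd8b1* (-2.08), *Cd8a* (-1.42), *Cd3d* (-1.52), *Trac* (-1.23) and *Cd3e* (-1.19), and *Cd5* (-0.98) and *Cd4* (-1.14) had the smallest log2 fold changes. Summed over the list, T cell markers stood at 137, 152, 147, 159 and 59.1 CPM in DSS-1 to DSS-5 and at 55.1, 70.9, 59.6, 32.5 and 39.7 CPM in ceAF-1 to ceAF-5, with *Cd8a* most abundant. DSS-5 was therefore low in T cell markers as well as in C1q. Of 7 tested neutrophil markers 5 were lower (median -3.94). Without DSS-1 the median was -1.07 and without both mice -0.85, with 1 lower each time, *S100a9*. The 5 were *S100a9* (-5.15), *Retnlg* (-5.72), *Cxcr2* (-3.94), *S100a8* (-3.98) and *Csf3r* (-2.80), and *Ly6g* (-0.67), the most abundant gene of the list, and *Mmp9* (-2.12) had the smallest differences. DSS-1 held 697 CPM of *S100a9*, where the next DSS mouse had 84.6. The neutrophil sum was 1900 CPM in DSS-1, from 126 to 553 in the other DSS mice and from 21.6 to 251 in ceAF mice. *Ly6g* made up most of it outside DSS-1 and DSS-3. Without *Ly6g* the sum was 1670 CPM in DSS-1, from 16.3 to 182 in the other DSS mice and from 2.21 to 46.2 in ceAF mice.

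ceAF-1 was also low in markers of fibroblasts and in most of those of endothelium. The fibroblast sum was 161 CPM in ceAF-1 against 443 to 810 in the other ceAF mice and 468 to 1070 with DSS, led by *Col3a1*. The endothelial sum, led by *Pecam1*, was 31.7 CPM in ceAF-1 against 53.0 to 115 in the other ceAF mice and 66.7 to 115 with DSS, although its *Prox1*, at 4.12 CPM, was the second highest of the 10 mice. The smooth muscle sum, led by *Myh11*, was 1130 CPM in ceAF-1 and lower in ceAF-3, at 1060. The epithelial sum was 27900 CPM in ceAF-1, the highest of the 10 mice, of which *Car1* was 11900. Without *Car1* it was 16000 CPM in ceAF-1, and the other 9 mice ranged from 15000 to 22500. *Muc2*, the most abundant gene of that list over all mice, was lowest in ceAF-1, at 3290 CPM. No marker passed an unadjusted p under 0.05 in the lists of fibroblasts (6 tested, median -0.29), endothelium (8, -0.40), smooth muscle (5, -0.26), epithelium (12, 0.08), B cells (8, -0.71) and dendritic cells (9, -0.37). With all mice, the extreme log2 fold changes in fibroblasts were *Lum* (-0.91) and *Pdgfra* (-0.46) at the low end and *Col3a1* (-0.02) and *Col1a1* (-0.05) at the high end. In endothelium they were *Pecam1* (-0.46) and *Prox1* (-0.46) at the low end and *Kdr* (-0.08) and *Emcn* (-0.22) at the high end. In smooth muscle they were *Actg2* (-0.32) and *Cnn1* (-0.26) at the low end and *Myh11* (-0.01) and *Des* (-0.12) at the high end. In epithelium they were *Cdx2* (-0.29) and *Muc2* (-0.20) at the low end and *Aqp8* (0.34) at the high end. In B cells they were *Fcer2a* (-1.02) and *Cd79b* (-0.85) at the low end and *Ms4a1* (-0.14) and *Cr2* (-0.24) at the high end. In dendritic cells they were *Ccr7* (-1.43) and *Xcr1* (-1.06) at the low end and *Batf3* (-0.08) and *Zbtb46* (-0.14) at the high end. Some of these extremes rested on DSS-1: without it *Ccr7* was at -0.225, *Lum* at -0.369, *Cd79b* at 0.119 and *Fcer2a* at 0.349. Without DSS-1 the medians of B cells and fibroblasts were 0.48 and 0.11. Without DSS-1 and ceAF-1 the medians were 0.33 in fibroblasts, -0.02 in endothelium, 0.04 in smooth muscle, 0.07 in epithelium, 0.75 in B cells and -0.14 in dendritic cells. At an unadjusted p under 0.05, *Prox1* was then lower (-0.84), and *Aqp8* was higher (0.59). Without DSS-1 alone, the dendritic cell gene *Itgae* was lower (-0.50). Of 6 mast cell markers 1 was tested, *Kit* (-0.22), and the defining markers *Cpa3* and *Mcpt4* were at 0.295 and 0.225 CPM. *Cma1*, a mast cell protease that was not tested, was at 0.563 ± 0.254 CPM with DSS and 2.21 ± 2.18 with ceAF (SD, n = 5 each).

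Since the C1q chains moved together, the sequence before their starts was read from RefSeq promoters of GRCm38.p6, which held an entry for 7 of the 10 genes, with *C1qb* and *C1qc* but not *C1qa*. The letters GAGGAAGT, a motif of PU.1, and the ETS core GGAA were searched on both strands of the 250 bases before the start. GAGGAAGT occurred in 2.44% of all 32851 promoters and GGAA in 93.4%. *C1qc* held GAGGAAGT 1 time, at position -195 on the opposite strand, and GGAA 5 times, and *C1qb* held GAGGAAGT 0 times and GGAA 4 times. Both entries of *Ly6c2* held GAGGAAGT, and those of *Cd68*, *Cx3cr1*, *Mrc1* and *Cd163* did not. The sequences below lie on the minus strand at chr4:136886201-136886450 (*C1qb*) and chr4:136893066-136893164 (*C1qc*, up to the first base of a known transcript), with matches of either motif in capitals on either strand, TTCC being GGAA and ACTTCCTC being GAGGAAGT read on the other strand. GAGGAAGT contains GGAA, so a match of the former is also one of the latter.
C1qb: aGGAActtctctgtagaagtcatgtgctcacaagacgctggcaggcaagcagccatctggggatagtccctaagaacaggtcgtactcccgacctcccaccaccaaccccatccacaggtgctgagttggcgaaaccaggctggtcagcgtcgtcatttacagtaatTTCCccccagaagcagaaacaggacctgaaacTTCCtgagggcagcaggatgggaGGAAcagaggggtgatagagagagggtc
C1qc: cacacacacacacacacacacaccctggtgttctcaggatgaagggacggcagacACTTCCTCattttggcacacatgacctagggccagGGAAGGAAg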

How the data were processed

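Colon poly(A) RNA of 10 mice was sequenced by a company. Per the submitters' processing notes, cutadapt 1.9.1 and HISAT2 2.2.1 were used; the counting program and genome build are not given in the sources used here. The authors deposited raw read counts per gene and FPKM values, which equal the count scaled by exonic length and library total (100% of values within 0.0051). From the counts, edgeR 4.0.16 (R 4.3.3) was run with filterByExpr (minimum count 10), TMM scaling and the two-sided quasi-likelihood test, adjusted by Benjamini-Hochberg over 16545 genes. Log2 CPM used a prior count of 1. Correlations used 100000 permutations of the mice. DESeq2 1.42.0 and limma 3.58.1 served as alternatives, and figures were drawn with matplotlib 3.10.9. Named genes were the 10 members, *Ly6c1*, genes of each list under an unadjusted p of 0.05 (at most 6) and the 2 with the highest and the 2 with the lowest log2 fold change (3 of these are not printed), and the 5 most like C1q and *Ly6c2*. A few others (such as *Spi1*, *Maf*, *Cebpa*, *Itgae*, *Cma1*, *Gas6* and the ligands) were named after their values were seen. The members and lists were chosen with earlier results of these data known. The edgeR step was tested on simulated data. No pair of libraries of the same group was alike within counting noise. Sequence windows came from GENCODE M21 transcripts.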

Additional observations from a re-analysis of the deposited data

Results flagged for a closer look

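Within each group of 5 mice, the distance from an extreme mouse to its nearest neighbour was taken as a share of the whole span of log2 CPM in that group, for the 10 genes and for the resident mean minus *Ly6c2*. Of 22 groups, 3 had a share above 0.71, where chance gives about 1.1. ceAF-1 was far below the other ceAF mice in *Cd68* (0.809 of the span) and in *Csf1r* (0.715). DSS-5 was far below the other DSS mice in *C1qc* (0.776). Without DSS-5 the log2 fold change of *C1qc* was -0.67, against -0.56 with all mice. The cause was not tested.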

How the results depend on the processing

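No setting brought any of the 10 genes under an adjusted p of 0.05 (range 0.467 to 1.00 over 179 values), and 177 of these kept the lower direction. The exceptions, both without ceAF-1 and DSS-1 together, were *Mrc1* (0.12) and *Ly6c2* (0.14). Genes passing adjustment numbered 0 in edgeR and limma-trend, 26 with DESeq2 (given 32504 genes) and 0 to 3 when 1 mouse was left out (3 without DSS-5). At an unadjusted p under 0.05 the main count of 1146 genes (6.93% of 16545) became 1733 with no filter on low counts (5.33% of 32504) and 712 to 1872 with 1 mouse left out (712 without DSS-1, 1872 without ceAF-1). Of the 10 genes, 1 passed that limit with upper quartile normalization, 1 with the stricter filter, which dropped *Cd163*, 0 without ceAF-1 and DSS-1 together, and 0 to 3 with 1 mouse left out (3 without DSS-5). With the replicate block, 694 genes and 0 of the 10 passed. Same-numbered mice had correlations from -0.249 to 0.286, and 1 of 5 numbers correlated best with its own. That gave no sign of pairing by number, but 5 numbers are too few to exclude it. The resident mean minus *Ly6c2* stayed above 0, from 0.0835 to 0.851 with 1 mouse left out, at 0.195 on log2(FPKM + 1) and at 0.455 with upper quartile scaling. The median r of the pairs, 0.685, was 0.569 to 0.799 with 1 mouse left out. The causes were not tested. Depth limits *Cd163* most.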
